A study of Mus musculus with 21 samples.

Results

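The proteins of the mitochondrial ribosome are the subject here: 78 nuclear genes of the mouse gastrocnemius, 29 of them named for the small subunit (Mrps) and 49 for the large subunit (Mrpl). Members were every gene of the count table whose symbol starts with Mrps or Mrpl and a number, pseudogenes left out, with a mean of at least 10 counts per library. All 78 symbols that matched had such a mean, among 40853 genes in the table, and all 78 were among the 16129 genes that could be tested. RNA was sequenced from the medial belly of the gastrocnemius, a mostly fast hind limb muscle, of 21 female C57BL/6NJ mice that were 10 weeks old at the start, with 1 library per mouse and 7 mice in each of 3 groups. Inactive mice spent the 6 weeks without training. Active mice ran on a treadmill throughout the 6 weeks, on 5 days per week, in sessions that reached 40 min with the warm-up included and whose main part was run at about 70% of maximal speed. Activity Reduction mice trained in the same way for 4 weeks and then had no training for 2 weeks. All mice, the Inactive ones included, ran a maximal test before the muscle was taken, between 48 and 72 h after that run. Whether less RNA per fibre or fewer fibres of a kind lies behind a lower count cannot be told apart in whole muscle.

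The mitochondrial ribosome translates the few mRNAs that the mitochondrial genome encodes, all of them for subunits of the respiratory chain and ATP synthase. Its rRNAs come from the mitochondrial genome, whereas every one of its proteins is encoded in the nucleus, made in the cytosol and imported. The small subunit binds and decodes the mRNA and the large subunit forms the peptide bond and holds the exit tunnel, which faces the inner membrane. In muscle this machinery is best known for its place in the mitochondrial biogenesis that follows endurance training, for which nuclear respiratory factor 1 (NRF1), ETS-family factors such as GABP, and YY1 are textbook regulators of nuclear genes.

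The genes lie on 17 chromosomes (GRCm39), so they share no locus. Some share sequence features at their start sites. In the 250 bases before and 50 bases after the start of the GENCODE vM39 transcript, on both strands, 36 of the 78 genes (46.2%) held at least 1 exact match to NRF1 (GCGCA, any base, then GCGC), ETS (CCGGAAG) or YY1 (AAGATGGC), compared with 16.9% of 21757 protein-coding genes. The ETS letters were found at 24 genes (30.8%, against 10.3% of all protein-coding genes), the NRF1 letters at 12 (15.4% against 5.81%) and the YY1 letters at 6 (7.69% against 2.47%). The small GC box GGGCGG occurred at 33 genes (42.3%), as at 42.5% of all. Promoters of cytoplasmic ribosomal protein genes held at least 1 of the first 3 motifs in 37.3% of 83 genes. Those of nuclear respiratory complex genes did so in 31.8% of the 66 with a matched gene model. In these sets in turn, the ETS letters were found at 28.9% and 15.2%, the NRF1 letters at 4.82% and 13.6%, and the YY1 letters at 4.82% and 7.58%. A neighbour that starts within 1000 bp on the other strand, facing away, was present for 14 genes (17.9%, against 5.04% of protein-coding genes). Such a neighbour was present for 10.8% of the cytoplasmic ribosomal and 15.2% of the respiratory complex genes. Among the 14 members, Mrps11 and Mrpl46, a gene of each subunit, start 30 bp apart. Mrps12 starts 129 bp from Sars2, the mitochondrial seryl-tRNA synthetase. These matches describe the letters of the window and not the binding of a factor.

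The stretch from 100 bases before to 30 bases after the start is shown for 6 of the genes described by their counts below, chosen to show each motif and both subunits, with the motif matches in capitals. Each is written 5′ to 3′ along the strand of the gene, from the GRCm39 genome.
Mrps11, chr7:78432767-78432896, plus strand: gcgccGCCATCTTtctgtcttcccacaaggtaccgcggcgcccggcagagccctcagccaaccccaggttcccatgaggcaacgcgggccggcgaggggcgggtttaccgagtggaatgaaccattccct
Mrps12, chr7:28441239-28441368, minus strand: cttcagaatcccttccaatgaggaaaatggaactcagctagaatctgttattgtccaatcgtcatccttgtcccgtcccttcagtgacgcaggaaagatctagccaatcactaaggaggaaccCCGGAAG
Mrps21, chr3:95778802-95778931, minus strand: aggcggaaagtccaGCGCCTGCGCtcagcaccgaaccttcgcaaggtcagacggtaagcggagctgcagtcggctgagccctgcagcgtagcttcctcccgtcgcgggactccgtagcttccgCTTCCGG
Mrpl12, chr11:120375339-120375468, plus strand: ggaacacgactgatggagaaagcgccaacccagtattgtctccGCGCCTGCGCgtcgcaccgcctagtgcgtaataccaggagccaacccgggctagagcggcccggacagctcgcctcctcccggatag
Mrpl34, chr8:71917455-71917584, plus strand: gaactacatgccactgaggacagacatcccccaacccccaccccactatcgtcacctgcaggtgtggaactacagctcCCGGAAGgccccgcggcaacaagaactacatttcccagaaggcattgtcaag
Mrpl45, chr11:97206442-97206571, plus strand: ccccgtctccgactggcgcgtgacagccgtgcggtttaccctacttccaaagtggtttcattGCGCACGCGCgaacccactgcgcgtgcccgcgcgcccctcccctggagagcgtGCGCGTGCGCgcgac
Mrps11 carries a YY1 match, Mrps12 and Mrpl34 an ETS match, Mrpl12 an NRF1 match, Mrpl45 a pair of NRF1 matches within the stretch, and Mrps21 both an NRF1 and an ETS match. Mrps16, Mrpl23, Mrpl54 and Mrpl55, which are among the genes with the smallest p-values below, held no match to these 3 motifs in their windows.

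Every library was deep relative to these genes, with between 38482455 and 59785132 reads counted on genes, and the 78 genes together took between 0.238% and 0.271% of them. Normalized counts below are raw counts divided by DESeq2's size factor of the library. Muscle identity was clear, with fast-muscle transcripts summing to between 182884 and 218877 CPM (counts scaled to the library total). However, the libraries fell into 8 with more and 13 with fewer transcripts of 24 liver genes, whose sum reached 2446 CPM and fell to 169.4 CPM. The 8 libraries were Active replicates 1 to 5, Activity Reduction replicates 1 and 2 and Inactive replicate 1, which also carry the lowest sample numbers in the labels. Myh7, the slow myosin heavy chain, was lowest in Activity Reduction replicate 4, at 4768 normalized counts, and ran from there to 25297 in that group (median 17764), against 9662 to 31604 (median 26042) in Active mice and 23363 to 33771 (median 28044) in Inactive mice. Activity Reduction replicate 1, at 8540, and Active replicate 3 were also low.

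The levels of single genes spanned a wide range. Mrpl42, a protein of the large subunit that bacterial ribosomes lack, had the highest count, with 7885 to 10490 normalized counts over the 21 libraries and a mean of 8958. Per kb of transcript it reached 11559 normalized counts, and per kb of coding sequence 21028, first of the 78 genes on both scales. Mrps21 (4725 per kb of transcript) and Mrpl23 (4094), which lies at the mouth of the exit tunnel, followed on the transcript scale and stood in the third and the fifth place on the coding scale. Mrps34 (3416), Mrpl2 (2627), a core protein of the peptidyl transferase region, and Mrps23 (2460) came next per kb of transcript. The 2 lowest small subunit genes per kb of transcript were Mrps2 with 124.8 and Mrps35 with 128.2 normalized counts, and the 2 lowest large subunit genes were Mrpl19 with 155.9 and Mrpl47 with 163.9. The order depends on the length used, since the annotated transcripts have a median length of 1812 bases, and Mrpl51 stood second per kb of coding sequence (10814) with 1210 per kb of transcript. Within a group, the SD between mice was 3.94% of the mean for Mrpl9, the least variable gene, and 13.8% for Mrps30, the most variable.

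**Figure D1:**
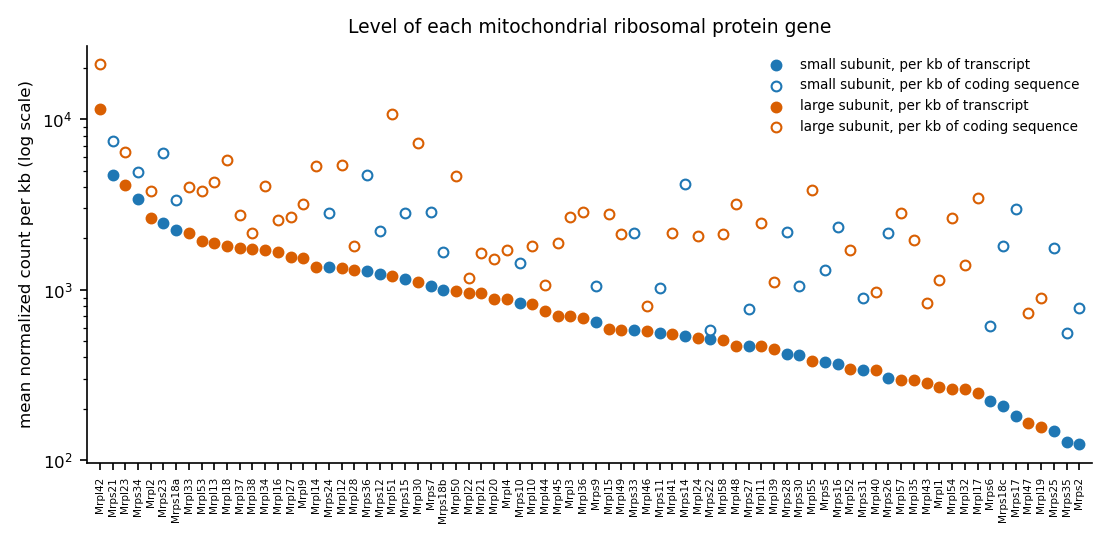
Mean normalized count per kb over 21 libraries (log axis) for each of the 78 genes, ordered by the level per kb of transcript (filled points), with the level per kb of coding sequence as open points. Small subunit genes are blue and large subunit genes orange; Mrpl42 is highest on both scales and Mrps2 and Mrps35 are at the low end.

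The genes of both subunits rose and fell together from mouse to mouse. The mean log2(normalized count + 1) of the small subunit genes ranged from 10.066 to 10.322 over the 21 libraries and that of the large subunit genes from 10.408 to 10.661. Active replicate 1 was lowest and Activity Reduction replicate 6 highest for both. The same libraries were lowest (12.315) and highest (12.726) in the mean of the cytoplasmic ribosomal protein genes. In that of the nuclear respiratory complex genes, Activity Reduction replicate 1 was lowest (12.602) and Activity Reduction replicate 6 highest (13.008). The difference between the subunits moved much less, from -0.376 to -0.304, a range of 0.072 against 0.256 and 0.253 for the subunits themselves. As a description over 21 libraries, a gene's log2 level correlated with the mean of the other members with a median Pearson r of 0.551. The median over other tested genes was -0.019, and 4.39% of them had an r above the members' median. Mrps14 (r = 0.92), Mrpl42 (0.83) and Mrps25 (0.83) were closest to the common level. Mrpl1 (-0.15), Mrps22 (-0.06), Mrps2 (0.04) and Mrpl32 (0.05) did not follow it. These values share library and depth scaling, and because the genes move together, a count of members in 1 direction does not amount to that many independent observations.

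The groups overlapped in this common level. For the small subunit the libraries lay between 10.113 and 10.270 (median 10.173) in the Inactive group, between 10.066 and 10.211 (median 10.141) in the Active group and between 10.119 and 10.322 (median 10.219) in the Activity Reduction group. For the large subunit the medians were 10.513, 10.485 and 10.544 in the same order. In both subunits the Activity Reduction libraries had the widest range and reached highest, and the Active libraries reached lowest.

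**Figure D2:**
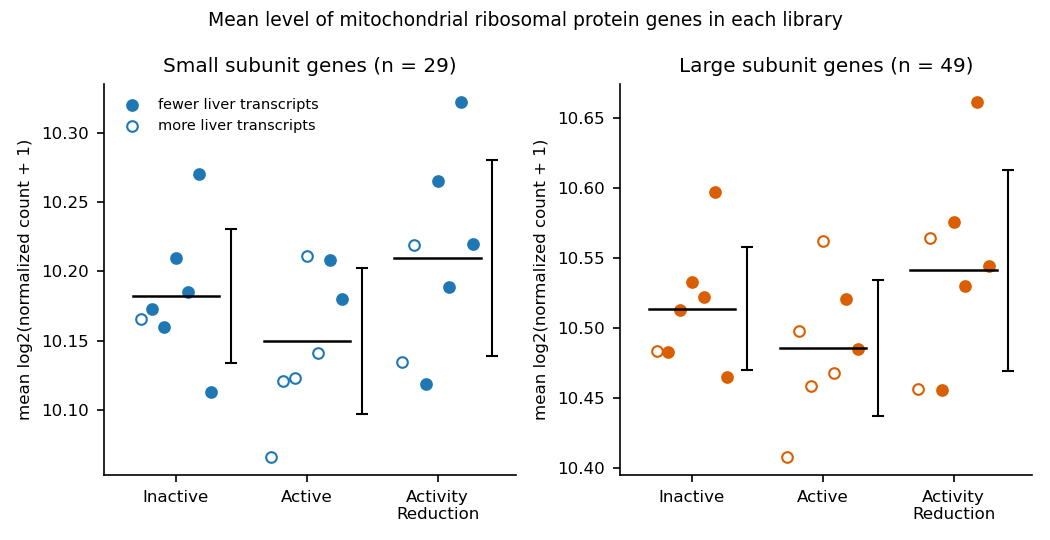
Mean log2(normalized count + 1) of the 29 small subunit genes (left) and 49 large subunit genes (right) in each of the 21 libraries, by group. Horizontal lines are group means and bars ± 1 SD of 7 mice; open points are the 8 libraries with more liver transcripts. The groups overlap in both panels, and the same libraries are high or low in both.

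The comparison of the Active with the Inactive group asks how regular running left these genes at rest. No member passed the thresholds of an adjusted p-value under 0.05 and a log2 fold change over 0.25 in either direction. By the quasi-likelihood test of edgeR, adjusted after Benjamini and Hochberg, 0 of 78 passed, where 0% of all tested genes did. By DESeq2 0 of 78 passed, where 0.524% of the 11826 genes with an adjusted p-value did. The smallest adjusted p-value was 0.333 among small and 0.392 among large subunit genes. At an unadjusted p-value under 0.05, 3 members differed, 1 higher and 2 lower. That is 3.85% of the members, where 10.9% of all tested genes differed, 6.18% higher and 4.69% lower. The median log2 fold change was -0.031 for the small and -0.023 for the large subunit, against 0.005 over all tested genes. The estimate was below 0 for 59 members and above 0 for 19, whereas 51.6% of all tested genes were above 0. Those differences were small: the 95% interval lay within 0.25 on the log2 scale for 75 members, including all 49 of the large subunit, and for 40.8% of all tested genes.

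The smallest p-values in this comparison belonged to Mrps11, Mrpl55 and Mrps23. Mrps11, a small subunit protein near the mRNA exit, had between 525.6 and 599 normalized counts in Inactive mice (median 538) and between 553 and 657 in Active mice (median 607). Its mean was 549 ± 30.1 (SD, n = 7) and 607 ± 34.5, and the log2 fold change was 0.15 (SE 0.0541, unadjusted p = 0.0107, adjusted p = 0.333 by edgeR). Some Active mice lay above every Inactive mouse, but Active replicates 1, 4 and 5 (596.6, 553.1 and 586.2) lay within the Inactive range. Mrpl55, a large subunit protein of animal mitochondria, had 1425 to 1583 normalized counts in Inactive mice (median 1478) and 1330 to 1473 in Active mice (median 1375), a log2 fold change of -0.11 (SE 0.0445, adjusted p = 0.392 by edgeR). Mrps23 had 3164 to 3837 (median 3499) in Inactive and 3093 to 3351 (median 3255) in Active mice, a log2 fold change of -0.11 (SE 0.0504, adjusted p = 0.445 by edgeR). For all 78 members the ranges of the groups overlapped, whereas those of 0.254% of all tested genes did not. In exact permutation tests of the difference in mean normalized counts (two-sided, 7 against 7) p was 0.00466 for Mrpl55, 0.00641 for Mrps11 and 0.00758 for Mrps23. After adjustment over the 90 such tests run, p was 0.149 for each. These tests were run only for the named genes, many of them named for their small p-values in these data. The adjustment does not account for that choice. Mrps6 (log2 fold change -0.14), Mrpl23 (-0.09), Mrps16 (-0.07), Mrpl57 (-0.07) and Mrpl33 (-0.05) were the next named members by p-value, with edgeR adjusted p-values between 0.497 and 0.704.

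Liver transcripts moved with this comparison, since 5 of 7 Active but 1 of 7 Inactive libraries were among the 8 with more. With that division as a covariate, 37 members were above and 41 below 0, and in the 13 libraries with fewer liver transcripts (2 Active, 6 Inactive) the mean was higher for 34 and lower for 44. Between the 8 and the 13 libraries, with the training groups not in the fit, 63 of the 78 genes were lower in the 8 libraries, 7 of them at an unadjusted p-value under 0.05, where 5.15% of all tested genes were lower at that level. Mrps11 was higher in Active mice in both divisions, by 0.19 with more and 0.18 with fewer liver transcripts on the log2 scale. Mrps16, lower over all libraries, was higher in both (0.04 and 0.05). The first value of each pair sets 5 Active libraries against 1 Inactive library. The part of liver RNA in the differences of any member was not tested. Markers of other cells also moved, with 5 of 6 endothelial, 6 of 7 macrophage and 6 of 6 fibroblast and tendon genes above 0 in Active mice, 3, 2 and 2 of them at an unadjusted p-value under 0.05, and their part was not tested.

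**Figure D3:**
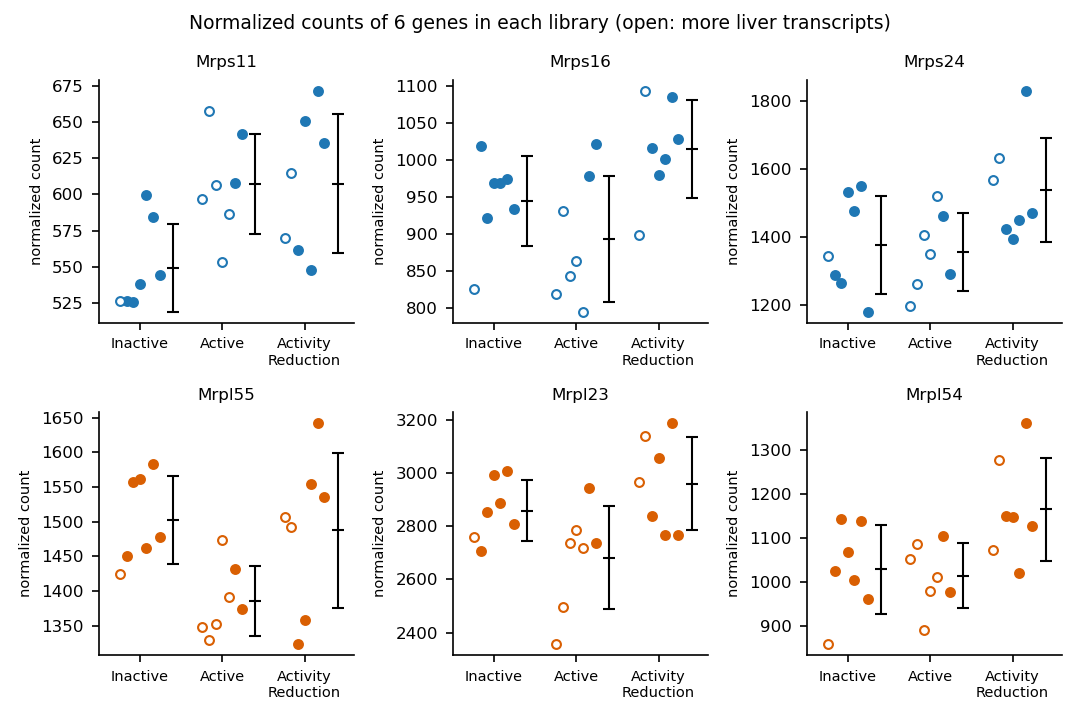
Normalized counts of 3 small subunit genes (blue) and 3 large subunit genes (orange) in each of the 21 libraries, by group; axes do not start at 0. Bars are the mean ± 1 SD of 7 mice and open points the libraries with more liver transcripts. The ranges of the groups overlap for all 6 genes, with Inactive mice lowest on average for Mrps11 and Active mice lowest on average for the other 5.

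The comparison of the Activity Reduction with the Inactive group asks whether the training period left a trace after 2 weeks without running. Here 0 of 78 members passed the thresholds by edgeR, where 0.0124% of all tested genes did. By DESeq2 0 passed, where 0.812% of the 2587 genes with an adjusted p-value did. DESeq2 gave the other genes no adjusted p-value, and a member among them could not pass. The groups overlapped for all 78 members, and 0.118% of all tested genes had groups that did not. The smallest edgeR adjusted p-value was 0.495 among small and 0.501 among large subunit genes. At an unadjusted p-value under 0.05, 7 members (8.97%) differed, 6 higher and 1 lower, against 7.73% of all tested genes, 4.19% higher and 3.54% lower. The median log2 fold change was 0.029 for the small and 0.033 for the large subunit, and 56 members were above 0 (52.2% of all tested genes). For 69 members the 95% interval lay within 0.25 (41.5% of all tested genes).

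Mrpl54, a large subunit protein of mitochondria, had 860 to 1144 normalized counts in Inactive mice (median 1026) and 1022 to 1360 in Activity Reduction mice (median 1148), a log2 fold change of 0.18 (SE 0.0683, unadjusted p = 0.0132, adjusted p = 0.501 by edgeR). Mrps11 ran from 547.9 to 671 (median 615) in Activity Reduction mice, a log2 fold change of 0.15 (SE 0.0539, adjusted p = 0.495 by edgeR), so its level stood above that of Inactive mice by the same amount in both trained groups, which were set against the same 7 Inactive mice. Mrps24, which binds mRNA at the entry of the small subunit, had 1180 to 1548 (median 1342) and 1395 to 1829 (median 1471) normalized counts, a log2 fold change of 0.17 (SE 0.0708, adjusted p = 0.604 by edgeR). In all 3 genes some Activity Reduction mice lay above every Inactive mouse and others within their range. Mrpl12, the stalk protein that has also been found bound to the mitochondrial RNA polymerase, Mrpl42 and Mrpl2 were higher at unadjusted p-values between 0.0394 and 0.0462, with log2 fold changes of 0.13, 0.10 and 0.09. Mrps18b, 1 of 3 paralogs of the bacterial protein S18, was the single member lower at that level, with 1154 to 1303 (median 1213) against 1248 to 1398 (median 1312) normalized counts, a log2 fold change of -0.10 (SE 0.0462, adjusted p = 0.637 by edgeR, exact permutation p = 0.00874, 0.149 after adjustment over 90 tests).

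Slow and oxidative muscle transcripts moved with this comparison: 7 of 9 were lower in Activity Reduction mice, 4 of them at an unadjusted p-value under 0.05, with a median log2 fold change of -0.562 and summed levels of 5137 to 7046 CPM against 6214 to 7524 CPM in Inactive mice. Their part in the members' differences was not tested.

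The comparison of the Activity Reduction with the Active group asks what followed when running stopped. Again 0 of 78 members passed the thresholds by edgeR or DESeq2, with a smallest edgeR adjusted p-value of 0.187 in each subunit. By edgeR 0% of all tested genes passed, and by DESeq2 0.791% of the 14544 genes with an adjusted p-value did. At an unadjusted p-value under 0.05, 13 members were higher in the Activity Reduction group and 0 were lower, 5 of the small and 8 of the large subunit. That is 16.7% of the members, where 13.3% of all tested genes differed, 6.89% higher and 6.44% lower. The median log2 fold change was 0.056 for the small and 0.049 for the large subunit, against -0.001 over all tested genes, and 65 members were above 0 (49.8% of all tested genes). For 65 members the 95% interval lay within 0.25 (39.4% of all tested genes).

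Markers of fibre type, of liver and of other cells moved with this comparison too. All 24 liver genes were below 0 in Activity Reduction mice (median log2 fold change -0.91), 0 of them at an unadjusted p-value under 0.05. Their summed level was 169.4 to 1698 CPM against 218.2 to 2135 CPM in Active mice. The 8 libraries with more liver transcripts included 5 Active but 2 Activity Reduction libraries. All 5 adipocyte genes were below 0 as well (median -0.388), 0 of them at that p-value. All 9 slow and oxidative muscle genes were below 0 in Activity Reduction mice (median log2 fold change -0.382), 1 of them at an unadjusted p-value under 0.05, and their summed level was 5137 to 7046 CPM against 5567 to 8105 CPM in Active mice. All 6 endothelial genes were below 0 (3 at that p-value), with sums of 170.1 to 200.2 CPM against 190.9 to 258.7 CPM. Of the macrophage genes 6 of 7 were below 0 (2 at that p-value), with sums of 13.8 to 33.3 CPM against 23.6 to 39.4 CPM. Of the fibroblast and tendon genes 5 of 6 were below 0 (4 at that p-value) and 1 was above 0 at it, with sums of 185.0 to 240.7 CPM against 233.6 to 388.4 CPM. The part of these shifts in the members' differences was not tested.

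Mrpl23 had 2358 to 2944 normalized counts in Active mice (median 2736) and 2766 to 3187 in Activity Reduction mice (median 2965), a log2 fold change of 0.14 (SE 0.0452, unadjusted p = 0.00529, adjusted p = 0.187 by edgeR). Mrps16, a small subunit protein conserved from bacteria, had 795 to 1022 (median 863) and 899 to 1093 (median 1016), a log2 fold change of 0.18 (SE 0.0589, adjusted p = 0.187 by edgeR). In both genes the lowest mouse was Active and the highest was of the Activity Reduction group. The groups overlapped, as for all 78 members (0.291% of all tested genes had groups that did not). Mrpl54 had 892 to 1105 (median 1012) normalized counts in Active mice and was higher by 0.20 (SE 0.0685, adjusted p = 0.211 by edgeR) in Activity Reduction mice, an increase of 14.7% and the largest fold change of any member in this comparison. Mrpl34 had 972 to 1125 (median 1080) and 1083 to 1340 (median 1165), a log2 fold change of 0.15 (SE 0.0526, adjusted p = 0.223 by edgeR; exact permutation p = 0.00233, 0.149 after adjustment over 90 tests). Mrps12, which lies at the decoding centre, differed by 0.16 (SE 0.0604), Mrps24 by 0.18 (SE 0.0710) and Mrpl13 by 0.12 (SE 0.0492), with edgeR adjusted p-values between 0.270 and 0.296. Mrps36 (0.11), Mrps26 (0.14), Mrpl42 (0.11), Mrpl55 (0.10), Mrpl38 (0.10) and Mrpl57 (0.13) completed the 13.

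The number of members at that level depended on single libraries. Without Activity Reduction replicate 6, the library with the highest level of both subunits, 5 members instead of 13 were higher at an unadjusted p-value under 0.05 (2 small, 3 large), 51 members were above 0, and the medians were 0.038 and 0.032, while the share of all tested genes with such a p-value, in either direction, went from 13.3% to 10.5%. Against the Inactive group the same omission left 1 higher and 1 lower member at that level, with 43 above 0 and medians of 0.005 and 0.011 (5.31% of all tested genes, from 7.73%). Without Activity Reduction replicate 4, the library lowest in slow myosin, 9 members were higher than in Active mice and 60 were above 0 (11.3% of all tested genes at that p-value), and against Inactive mice 3 were higher and 49 above 0 (7.31%). With the liver division as a covariate, 10 members were higher than in Active mice at that level and 57 were above 0, with 10.7% of all tested genes at that p-value. In only the 13 libraries with fewer liver transcripts, where Active mice number 2, 1 member was higher at that level, and the share of all tested genes was 4.41%.

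**Figure D4:**
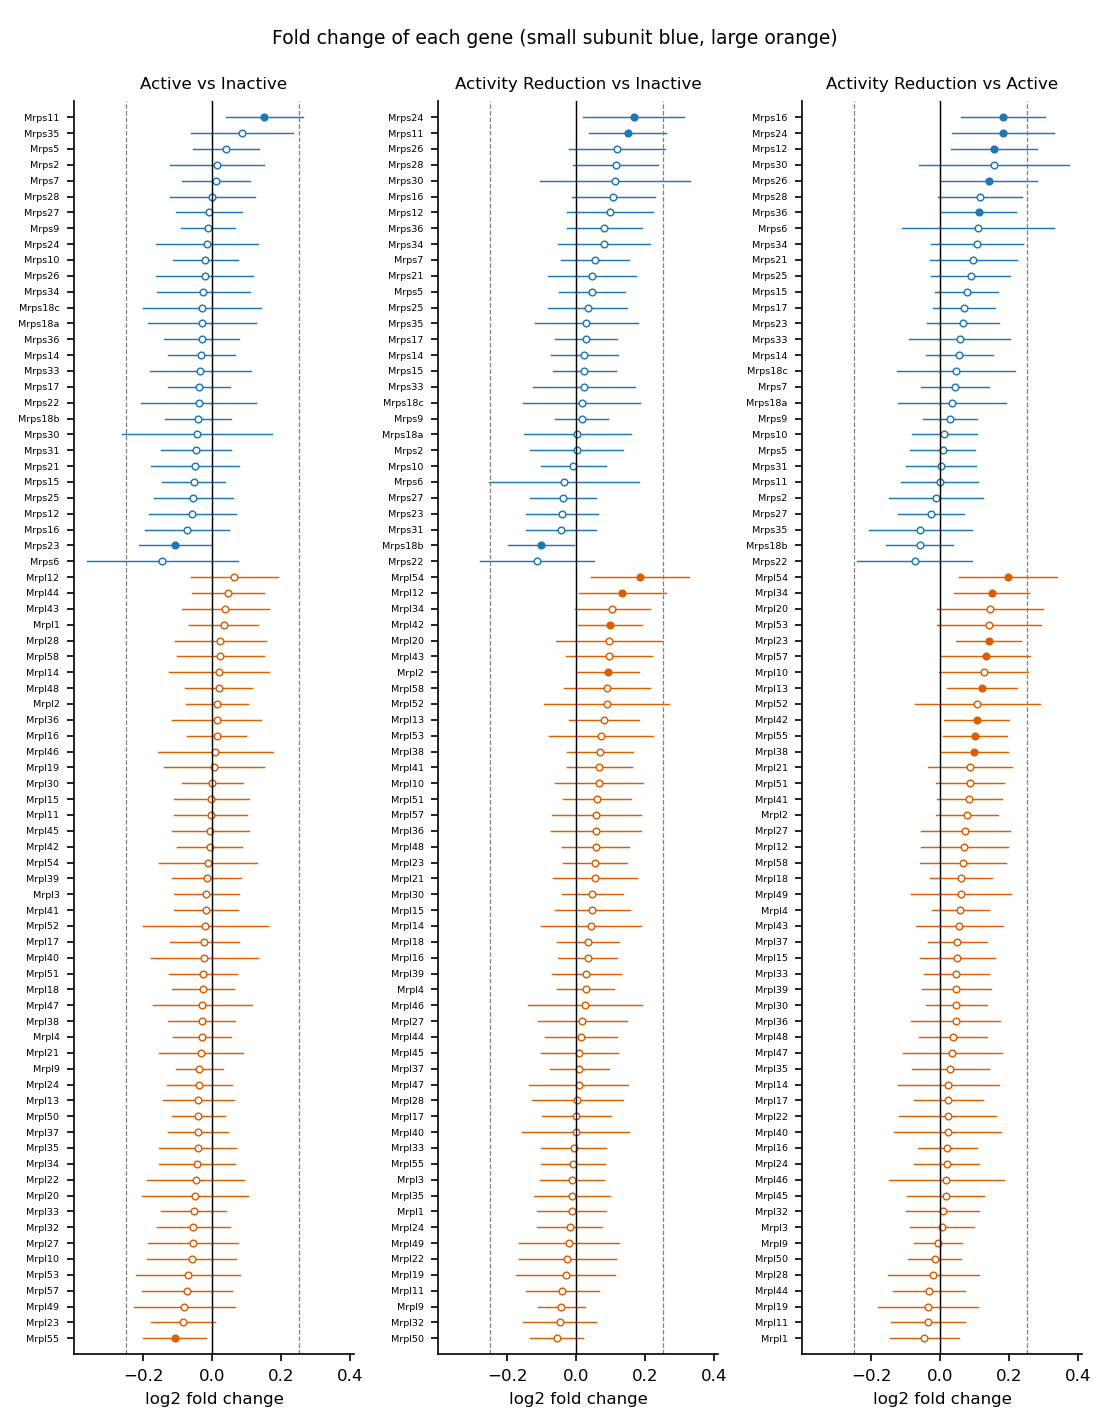
Log2 fold change of each of the 78 genes with its 95% interval (edgeR) in the 3 comparisons, small subunit genes in blue above large subunit genes in orange, ordered by value within each subunit. Filled points have an unadjusted p-value under 0.05 (3, 7 and 13 genes) and dashed lines mark 0.25; no gene passed the adjusted thresholds.

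Several members are named for one subunit or for the ribosome but have another place or role. Mrps30 and Mrps18a sit in the large subunit of the assembled mammalian ribosome. Mrps30 varied most between mice, from 948 to 1562 normalized counts in Inactive mice, and its log2 fold changes were -0.04, 0.11 and 0.16 in the order in which the comparisons are given above, with SE 0.105 in each. Mrps18a lay within 0.03 of 0 in each comparison, as did Mrpl45, which anchors the ribosome at the inner membrane, within 0.02. The paralog Mrps18c had log2 fold changes of -0.03, 0.02 and 0.05. Mrps36, now regarded as a subunit of the 2-oxoglutarate dehydrogenase complex rather than of the ribosome, differed between Activity Reduction and Active mice by 0.11 (SE 0.0524, adjusted p = 0.358 by edgeR). Mrpl58, a peptidyl-tRNA hydrolase built into the large subunit, had values of 0.02, 0.09 and 0.07. Counting Mrps30 and Mrps18a with the large subunit and leaving out Mrps36 gave 12 instead of 13 members higher in Activity Reduction than in Active mice.

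Other parts of the mitochondrial translation system gave no member past the thresholds in any comparison. The 5 mitochondrial ribosome proteins with other kinds of symbol, Dap3 and Aurkaip1 among them, had medians of -0.039, 0.044 and 0.054 in the 3 comparisons, near those of the members. The 24 genes for assembly of the ribosome and modification of its rRNA had medians of -0.059, -0.019 and 0.046. In Active mice 2 of them (8.33%) were lower than in Inactive mice at an unadjusted p-value under 0.05. Of all tested genes 10.9% differed at that level, 4.69% being lower. The 2 were the GTPases Mtg2 (-0.19, SE 0.0556) and Mtg1 (-0.15, SE 0.0450), with adjusted p-values of 0.247 and 0.273 by edgeR. Mtg1 had 1083 to 1192 normalized counts in Inactive mice (median 1153) and 949 to 1122 in Active mice (median 1030). The 15 translation factors that could be tested, of 16 listed, had medians of -0.035, -0.007 and 0.029, with 0 at an unadjusted p-value under 0.05 by edgeR or DESeq2 in any of the 3 comparisons. The 13 mRNAs of the mitochondrial genome, which the ribosome translates, had medians of -0.028, 0.012 and 0.064.

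The 82 nuclear genes for respiratory complexes had medians of -0.008, 0.058 and 0.065. At an unadjusted p-value under 0.05, 8 were higher and 1 lower in Activity Reduction than in Active mice. That is 11% of these genes, where 13.3% of all tested genes differed. The 82 tested proteins of the cytoplasmic ribosome had medians of -0.032, 0.086 and 0.118. Of these, 46 were higher in Activity Reduction than in Active mice at that level (56.1%, against 6.89% of all tested genes). Against Inactive mice, 22 were higher (26.8%, against 4.19% of all tested genes). Activity Reduction replicate 6 was also the library with the highest mean of the cytoplasmic ribosomal proteins (12.726) and of the respiratory genes (13.008). The lists were not tested against each other, and the last 2 comparisons share the Activity Reduction mice.

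**Figure D5:**
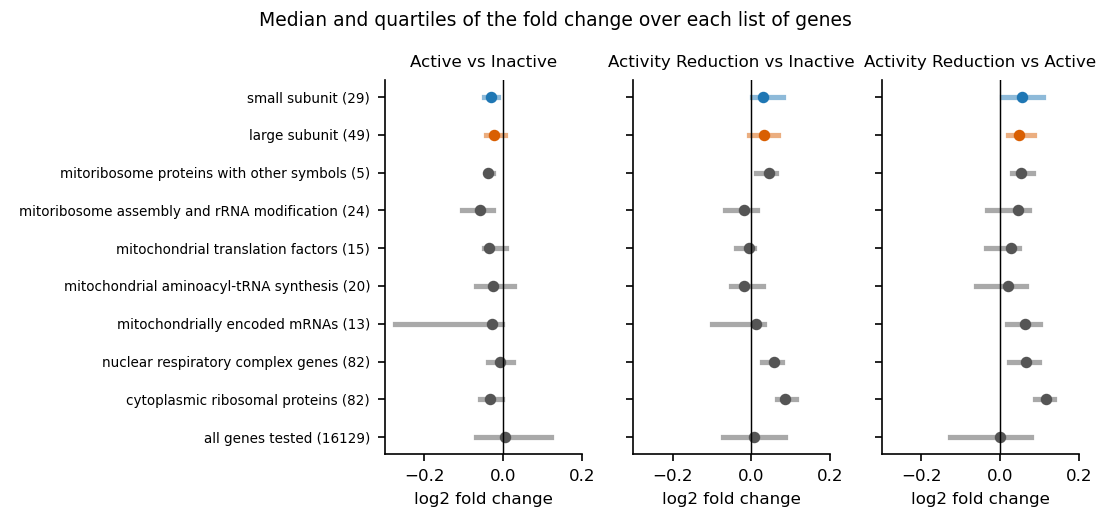
Median (points) and quartiles (bars) of the log2 fold change over each list of genes in the 3 comparisons, with the number of genes tested in parentheses. The medians of both subunits lie between -0.031 and 0.056, and the median of the cytoplasmic ribosomal proteins reaches 0.118 in Activity Reduction against Active mice.

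Some counts may include reads of other loci, or lack reads that were shared with them. The setting for strand in the authors' counting is not given in the sources used here, and 29 members share at least 10% of their exon length with a gene on the opposite strand. For Mrpl54 the share is 94.4%, with Matk, for Mrpl34 it is 81.4%, with a noncoding gene, and for Mrps18c it is 76.9%, with Abraxas1. For Mrps34 it is 62.6%, with Mapk8ip3. For Mrps12 it is 19.3%, with Sars2. Mrps34 (47.8%, with Nme3), Mrpl3 (26.4%, with Gm38077), Mrps6 (12.6%, with Slc5a3) and Mrps24 (10.6%, with Urgcp) share exons with a gene on the same strand. Copies of at least 95% identity over 30% or more of the transcript were found elsewhere in the genome for 11 members, Mrpl23, Mrpl42, Mrps18b, Mrps21 and Mrps36 among them. The values of these genes are uncertain to that extent.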

How the data were processed

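Poly(A)-selected RNA of 21 muscles was sequenced in paired ends. The deposited values are counts of reads per gene, which the authors made with fastp, RNA STAR on GRCm39 and featureCounts (versions, annotation and strand setting not given in the sources used here). The other deposited table, although its name speaks of normalization, repeats all 857913 raw values and was not used. Groups came from the labels.

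Differences were tested in 1 model of the 21 libraries with edgeR 4.0.16 (TMM, filter on low counts, quasi-likelihood F-test, Benjamini-Hochberg adjustment over 16129 genes). A gene was called at an adjusted p-value under 0.05 and a log2 fold change over 0.25. DESeq2 1.42.0, which the authors used, was an alternative. With 7 against 7 an exact permutation p cannot go below 0.000583. The mean raw count per library was 234 for Mrps6 and higher for every other member. The code was tested on simulated data. Named genes were, by rule, the 4 members of each subunit with the smallest p-value in each comparison, the 3 highest and 2 lowest per kb, any member called or without overlap of groups (none was), and 8 members of special place or role; Mrpl9, Mrpl51, the members at either end of the correlation and the rest of the 13 were named after their values were seen. Members and lists were chosen with earlier results of these data known. Gene models, overlaps and promoter sequences came from GENCODE vM39 on GRCm39, which is the build of the counts and may differ in annotation, and all 78 symbols matched.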

Additional observations from a re-analysis of the deposited data

Results flagged for a closer look

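Among 96 sets of 7 libraries, the 3 groups for each of the named genes and for the mean level of each subunit, 4 held a library far from the other 6 by Dixon's test (critical value 0.568), about as many as the 1 in 20 that chance gives. Mrpl13 was highest in Active replicate 4, at 2466 normalized counts where the others lay between 2075 and 2238. Mrpl45 was highest in Inactive replicate 6, at 1990.0 where the others lay between 1638 and 1700.4. Mrps2 was lowest in Active replicate 3, at 552.3 where the others lay between 659 and 736. Mrps6, the gene with the fewest counts, was lowest in Active replicate 1, at 137.9 where the others lay between 210.2 and 251.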

How the results depend on the processing

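No alternative gave a member past the thresholds, and the medians kept their direction, except that of the small subunit in Active against Inactive mice with fewer liver transcripts, where 15 of 29 genes were above 0 and the median was 0.000. Counts at an unadjusted p-value under 0.05 moved more. For Active against Inactive mice (2 small and 1 large subunit genes), the small count was 1 with a replicate block. It was also 1 in the libraries with fewer liver transcripts, and the large count was 0 with the liver division as covariate. The share of all genes at that level was 10.9% in the main fit, and 12.6%, 6.07% and 8.51% in these fits in turn. For Activity Reduction against Inactive mice (3 and 4), the large count was 2 with DESeq2 and 2 with DESeq2 size factors. It was also 2 with no filter on low counts, and 1 in the 14 libraries compared. With fewer liver transcripts the counts were 1 and 1. The share of all genes was 7.73% in the main fit, and 4.88%, 7.66%, 7.71%, 7.19% and 7.89% in these fits in turn. For Activity Reduction against Active mice (5 and 8) the counts were 3 and 4 in the 14 libraries and 0 and 1 with fewer liver transcripts. The share of all genes went from 13.3% in the main fit to 12.3% and 4.41%. Mrps16 turned from below to above 0 in Active mice, to 0.01 with the liver covariate and 0.06 with fewer liver transcripts; the cause was not tested. Leaving out 1 library at a time gave small and large counts of 1 to 2 and 1 to 2, 1 to 6 and 0 to 6, and 2 to 6 and 3 to 11, and medians of -0.052 to -0.015 and -0.038 to -0.013, 0.005 to 0.042 and 0.011 to 0.042, and 0.038 to 0.075 and 0.032 to 0.069, in the order of the comparisons. In the comparisons of the Activity Reduction group, 7 of the 8 lowest values came without its replicate 6. The share of all tested genes at an unadjusted p-value under 0.05 also varied as single libraries were left out. It ran from 8.31% to 14.3%, 5.31% to 9.07% and 10.5% to 14.3%, in the order of the comparisons. Replicate numbers did not pair the mice: 7 of 21 same-number pairs correlated above 0.1 (r from -0.23 to 0.44) and 3 libraries correlated best with their own number. With the block, 2, 9 and 16 members had an unadjusted p-value under 0.05, beside 12.6%, 7.63% and 14.6% of all tested genes.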

Other observations

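The rRNAs around which the mitochondrial ribosome is built are encoded in the mitochondrial genome and are only partly kept by poly(A) selection. In Active mice mt-Rnr1, of the small subunit, had 55074 to 75711 normalized counts (median 61059) against 60586 to 88972 (median 77426) in Inactive mice, a log2 fold change of -0.27 (SE 0.118, unadjusted p = 0.0314, adjusted p = 0.418 by edgeR). The large subunit rRNA mt-Rnr2 differed by -0.17 (SE 0.0840, adjusted p = 0.456 by edgeR). Both ranges overlapped. In Activity Reduction mice the values against Inactive mice were -0.20 and -0.10.

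A list of 12 genes for transcription, of nuclear genes for mitochondria or of the mitochondrial genome, included Polrmt, the mitochondrial RNA polymerase. Polrmt had 1278 to 1433 normalized counts (median 1337) in Active mice. Inactive mice had 1367 to 1594 (median 1523) and Activity Reduction mice 1406 to 1726 (median 1502), and the ranges overlapped. In Active mice Polrmt was lower by 0.14 on the log2 scale than in Inactive mice (adjusted p = 0.336 by edgeR). Activity Reduction mice stood 0.18 above Active mice (adjusted p = 0.143 by edgeR). Esrra, a nuclear receptor active in mitochondrial biogenesis, was 0.22 higher in Activity Reduction than in Inactive mice (SE 0.0628, adjusted p = 0.344 by edgeR). In Active mice Esrra was 0.13 higher than in Inactive mice (SE 0.0628, adjusted p = 0.460 by edgeR). Ppargc1a, of the same list, was higher in Activity Reduction than in Inactive mice by 0.14 (adjusted p = 0.644 by edgeR). Against Active mice it was higher by 0.15 (adjusted p = 0.341 by edgeR). Among 20 genes for charging mitochondrial tRNAs, Lars2, the leucyl-tRNA synthetase, stood out, with a log2 fold change of 1.04 (SE 0.343, adjusted p = 0.190 by edgeR) in Activity Reduction against Active mice. Its Activity Reduction counts ran from 8187 to 60759 with a median of 9498, close to the median of 9520.0 in Inactive mice, so the difference in means came from part of that group.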
